A study of Homo sapiens with 6 samples.

Results

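Axon guidance genes encode 4 ligand families and their receptors: semaphorins with plexins and neuropilins, ephrins with EPH receptors, SLIT proteins with ROBO receptors, and netrins with UNC5 receptors. They were examined in OCI-LY8, an established human B-cell lymphoma line. Members were the rows of the deposited count table whose gene symbol belongs to one of these families. This rule itself uses no measured value, but the families were chosen with earlier results of these data known. The rule took 74 of 26485 rows, of which 70 were protein-coding and 4 were antisense RNAs that carry a family member's name. Libraries came from 2 groups of 3: cells carrying a guide RNA against SETD1B, labelled SETD1B knockout, and cells carrying the non-targeting guide sgNTC1, labelled WT and called control here. SETD1B encodes a methyltransferase for lysine 4 of histone H3. The series' design text names a KMT2D mutant line, OCI-LY19, for this comparison, whereas OCI-LY8 stands in its title and on every sample, and is the name used here; whether these cells carry a KMT2D mutation was not checked. Both groups grew in the same medium with serum, and each group carries 1 guide name, with no word on clones, so guide, clone and knockout effects cannot be told apart. Nothing in the labels says that replicates came from separate cultures, so p-values measure the spread between these libraries, which may be technical.

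Guidance molecules were first described in the growing nervous system, where a ligand on or from one cell steers the actin skeleton of another. Semaphorins act through plexins, and most secreted class 3 semaphorins also need a neuropilin. Ephrins stay on the membrane and bind EPH receptor tyrosine kinases on the neighbouring cell. Several of these proteins also work in the immune system: SEMA4D, also called CD100, is a lymphocyte surface semaphorin that binds plexin-B1 and the B-cell receptor partner CD72.

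Read depth was 28726108 to 34453249 counts assigned to genes per library. The SETD1B transcript stood at 87.4, 90.2 and 55.1 CPM (counts per 1000000 reads, scaled by TMM) in knockout replicates 1, 2 and 3, against 59.8, 54.8 and 53.8 CPM in control replicates 1, 2 and 3. The gene was not called (log2 0.47, SE 0.18, edgeR adjusted p = 0.14), and a transcript count does not check an edit. Knockout replicate 3 stood apart, at -30.1 on the second principal component against 15.0 and 20.8 for knockout replicates 1 and 2. All 8 B-cell markers were tested, and they summed to 2375 to 3031 CPM in knockout and 2329 to 2363 CPM in control libraries. PAX5 and CD22 were called higher among them (log2 0.66 and 0.59), and MS4A1 and EBF1 lower (log2 -0.77 and -0.31). Among markers of other cell types, 6 myeloid genes summed to 4.24 to 5.57 CPM in knockout and 9.30 to 11.6 CPM in control libraries. ITGAM and LYZ were called lower among them (log2 -1.61 and -1.29). The 8 fibroblast genes summed to 2.67 to 3.64 CPM in knockout and 0.345 to 0.493 CPM in control libraries. LUM (2.43 CPM in knockout and 0 in control libraries) and DCN (0.417 CPM in knockout and 0.00966 CPM in control libraries) made up most of the knockout sums, and both were called higher. With at most 1 read in a control library, they could be tested only through their knockout reads. COL1A1 went the other way (0.153 CPM in knockout and 0.341 CPM in control libraries), as did PDGFRB and COL1A2, which had no knockout read. COL3A1 and PDGFRA had no read at all, and none of these other genes was tested. The 8 endothelial genes held 31.0 to 35.0 CPM in knockout and 34.6 to 35.8 CPM in control libraries, with PECAM1 called higher and ESAM lower. Of 10 neuronal and glial markers, SNAP25, STMN2, OLIG2 and SOX10 had no read. The list summed to 146 to 198 CPM in knockout and 188 to 196 CPM in control libraries, most of it TUBB3 and MBP. MBP was called lower (log2 -0.28). The 5 epithelial markers summed to at most 0.0347 CPM in any knockout and 0.116 CPM in any control library, and the 6 T and NK cell markers to at most 0.411 CPM in any knockout and 0.786 CPM in any control library. The part of other cell types in the results below was not tested.

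Most of the family was off or barely read. Of the 74 rows, 17 were silent, with 0 reads in all 6 libraries, and 32 were trace rows, with at least 1 read but too few to be tested. The other 25 rows passed edgeR's filter on low counts (33.8% of members, against 48.7% of all rows in the table). A count of 0 allows up to 3 counts, which is 0.0870 to 0.104 CPM per library and covers counting error only. Silence was 23.0% among members and 30.2% in the whole table. Nearly all members are protein-coding, whereas the table also holds non-coding genes, and no share over protein-coding rows alone was taken.

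**Figure D1:**
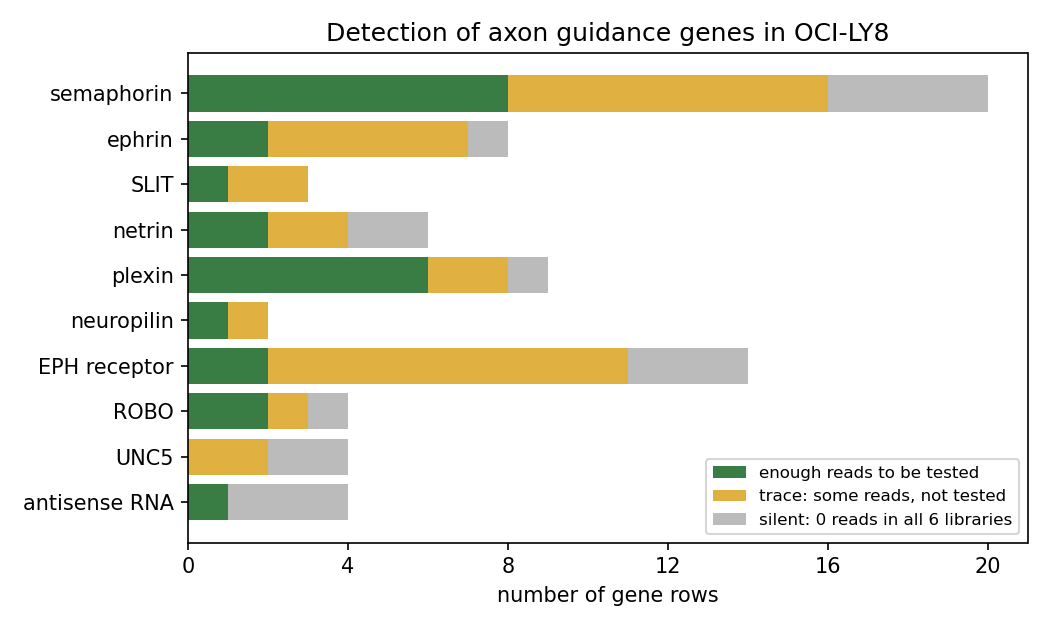
Number of gene rows per family (x axis) that were tested, trace or silent in the 6 OCI-LY8 libraries. Semaphorins (8 of 20) and plexins (6 of 9) held most tested rows, while no UNC5 receptor was tested and 9 of 14 EPH receptors were trace rows.

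Among ligands, the silent semaphorins were SEMA3D, SEMA5A, SEMA6B and SEMA6D. SEMA3A, SEMA3B, SEMA3C, SEMA3E, SEMA4G, SEMA5B, SEMA6A and SEMA7A were trace rows. The class 4 semaphorins, which are membrane proteins, were nearly all read: SEMA4A, SEMA4B, SEMA4C, SEMA4D and SEMA4F were tested, and SEMA4G was not. SEMA3F, SEMA3G and SEMA6C were the other tested semaphorins. EFNB1 was silent, although in mouse ephrin-B1 marks germinal centre B cells. EFNA1, EFNA2, EFNA5, EFNB2 and EFNB3 were trace rows, and EFNA3 and EFNA4 were tested. These last 2 lie beside EFNA1 on chromosome 1 (EFNA4 at 155063731 to 155069553, EFNA3 at 155078872 to 155087538, EFNA1 at 155127460 to 155134857, hg38). EFNA1 had at most 1 read per library, against 284 to 437 reads for EFNA4. EFNA3 and EFNA4 share exon bases with an annotated readthrough gene, so how reads were divided between them is uncertain. Of the other ligands, SLIT1, NTN1 and NTN3 were tested, SLIT2, SLIT3, NTN5 and NTNG2 were trace rows, and NTN4 and NTNG1 were silent. NTNG1 and NTNG2 encode netrin-G proteins, to which the pairing of netrins with UNC5 receptors does not extend.

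Among receptors, 6 of 9 plexins were tested: PLXNA1, PLXNA3, PLXNB1, PLXNB2, PLXNC1 and PLXND1. PLXNA4 and PLXNB3 were trace rows and PLXNA2 was silent. Of the 2 neuropilins, NRP2 was tested, whereas NRP1 had 1 read in 1 knockout library and none elsewhere. EPHA2 and EPHB4 were the 2 tested EPH receptors of 14. EPHA1, EPHA6 and EPHB2 were silent, and EPHA3, EPHA4, EPHA5, EPHA7, EPHA8, EPHA10, EPHB1, EPHB3 and EPHB6 were trace rows with at most 4 reads in a library. ROBO1 and ROBO2 were tested, ROBO3 had 1 read and ROBO4, which marks endothelium, had none. The netrin receptors UNC5A and UNC5C were silent and UNC5B and UNC5D were trace rows, with at most 3 reads in a library. DCC, the other main netrin receptor, also had no read. SEMA6A-AS1 was the tested antisense row, while EPHA1-AS1, EPHA5-AS1 and SEMA3B-AS1 were silent.

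To compare levels between genes, CPM were divided by the length of the merged annotated exons in kilobases (RPKM). In the controls the order began with EFNA4 at 9.71 ± 0.313 RPKM, SEMA4D at 9.34 ± 0.201 RPKM and SEMA4A at 9.15 ± 0.0929 RPKM (SD, n = 3 per group here and below). These leading 3 did not differ from their neighbours among them by more than the summed SDs. The same held for PLXNB1 beside PLXNC1, SEMA3F beside EFNA3, EFNA3 beside PLXNA3, NRP2 beside NTN3, SEMA4F beside SEMA4C, and each neighbouring pair from SEMA6A-AS1 (0.312 RPKM) down to SLIT1 (0.136 RPKM). PLXND1 (8.46 ± 0.184 RPKM) and ROBO1 (7.22 ± 0.182 RPKM) followed, and SEMA3G (0.460 ± 0.0286 RPKM) and ROBO2 (0.406 ± 0.00157 RPKM) ranked 19 and 20 of 25. The SD of ROBO2, on 195 to 234 reads per control library, is below counting error, so the order of SEMA3G and ROBO2 is uncertain. In the knockouts SEMA4A led at 9.09 ± 1.17 RPKM, within the summed SDs of EFNA4 at 7.91 ± 0.933 RPKM, followed by SEMA4D at 6.37 ± 0.263 RPKM. Semaphorin levels summed to 19.6 to 25.9 RPKM in knockout and 28.1 to 28.4 RPKM in control libraries. Plexin levels summed to 17.3 to 28.5 RPKM in knockout and 28.5 to 29.5 RPKM in control libraries. In both families the lowest of these sums was that of knockout replicate 3, the library that stood apart. Expressed isoforms may be shorter than the merged exons, which would raise a gene's true level per length.

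Between the groups, 7 of the 25 tested members fell in the knockouts and none rose. Without knockout replicate 3, which stood apart, 8 were lower and 6 higher, in a comparison that called 44.4% of 13063 genes, 22.8% lower and 21.6% higher. The 7 were the receptors ROBO2, NRP2, PLXND1, ROBO1 and PLXNC1 and the semaphorins SEMA3G and SEMA4D. Across all 12907 tested genes, 15.0% were called (edgeR's quasi-likelihood test, adjusted p under 0.05), 9.33% lower and 5.71% higher. The median log2 fold change, knockout minus control, was -0.25 over the tested members and -0.009 over all tested genes. Of the 25, 18 had a negative fold change, as had 52.0% of all tested genes. At an unadjusted p under 0.05, 10 members passed, 1 of them upward. Groups did not overlap in 12 of the 25 members and in 37.7% of all tested genes. In 11 members all 3 knockout values lay below the 3 control values and in 1 they lay above; over all tested genes, 21.3% were separated downward and 16.5% upward. The median, the signs and the separated groups above all include knockout replicate 3. Without it, NTN3, PLXNB2, PLXNA3, SLIT1, SEMA4A and EFNA3 turned positive (log2 0.06 to 0.15), and no member turned negative. The median was not taken without that library. Of the 7, ROBO2, SEMA3G and NRP2 were at least 2-fold lower, as were 2.43% of all tested genes. In bulk RNA, fewer cells with a transcript and less of it per cell cannot be told apart.

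**Figure D2:**
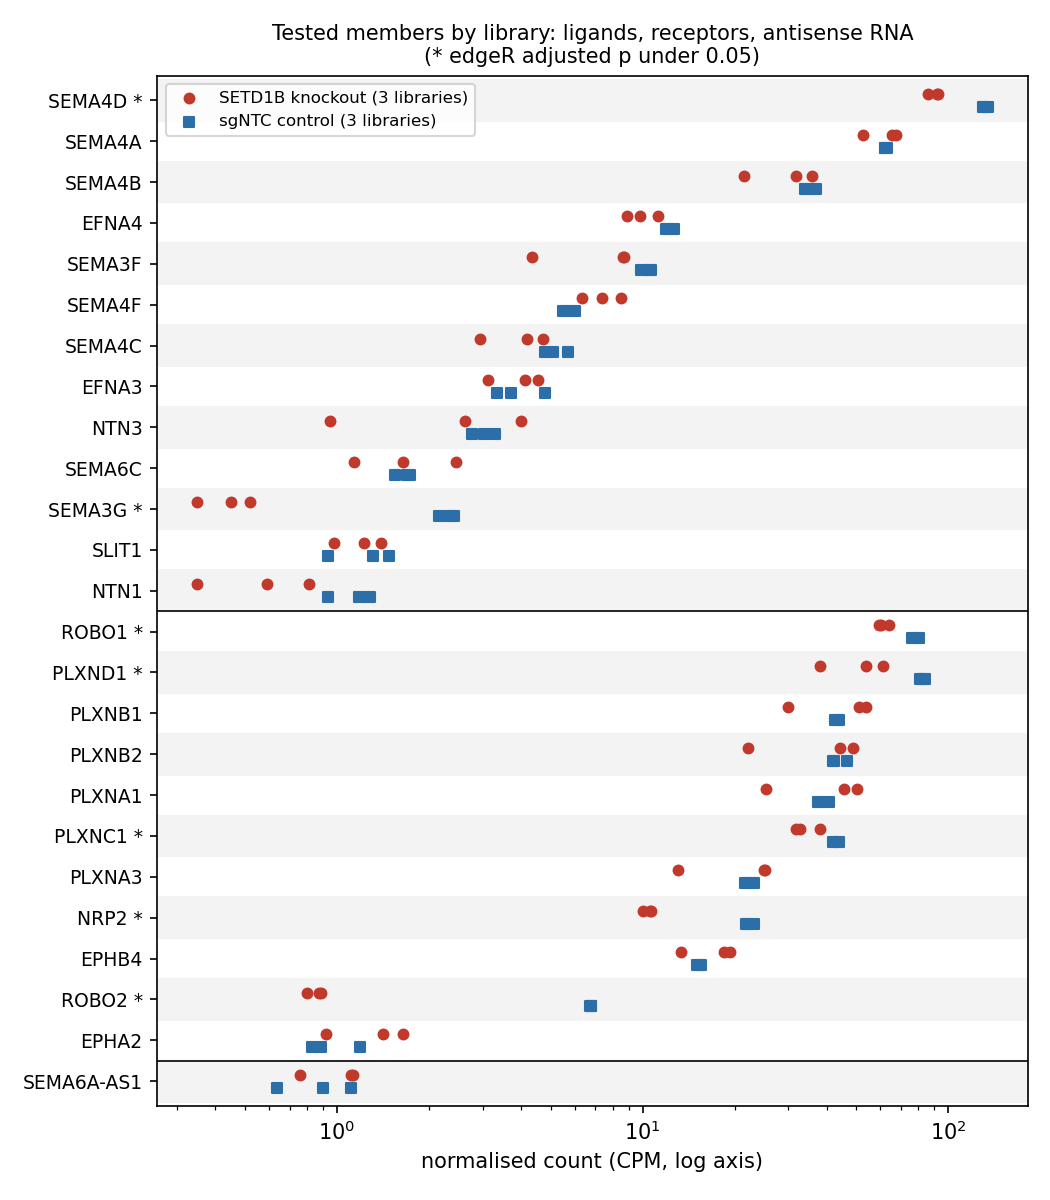
Normalised counts (CPM, log axis) of the 25 tested members in each library, knockout (red circles) above control (blue squares), with ligands at the top, receptors below and the antisense RNA last. Asterisks mark the 7 called members; ROBO2, SEMA3G and NRP2 are separated most widely, and one knockout value lies apart to the left in many of the unmarked rows.

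Both read SLIT receptors fell, by very different amounts. ROBO2, a receptor that takes up the SLIT repellent signal, had 0.874, 0.797 and 0.886 CPM in knockout replicates 1, 2 and 3, against 6.78, 6.74 and 6.78 CPM in control replicates 1, 2 and 3. These are 78 reads in all in the knockouts and 636 in the controls, and every knockout library was far below every control library. The difference was 7.89-fold (log2 -2.98, SE 0.12, edgeR adjusted p = 2.5e-05). ROBO1, its close relative, had 64.0, 60.5 and 59.3 CPM in the knockouts, against 80.1, 79.1 and 76.3 CPM in the controls. The groups did not overlap, and the difference was 1.28-fold (log2 -0.36, SE 0.06, edgeR adjusted p = 0.0066). It missed the threshold without control replicate 2 (edgeR adjusted p = 0.051). ROBO1 made up 99.0 to 99.1% of the summed ROBO level per length in knockout libraries and 94.5 to 94.7% in control libraries. The 2 genes are neighbours on chromosome 3, ROBO2 at 75906695 to 77649964 on the forward strand and ROBO1 at 78597240 to 79767815 on the reverse strand. Within 1 Mb of ROBO2, 4 other genes were tested, and ROBO1 was the only one called. The SLIT ligand read here, SLIT1, averaged 1.20 ± 0.205 CPM in knockout and 1.24 ± 0.280 CPM in control libraries (log2 -0.06, SE 0.23, edgeR adjusted p = 0.90).

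The class 3 semaphorin arm also held large differences. NRP2, the neuropilin that binds SEMA3F and SEMA3G and also the growth factor VEGF-C, had 10.7, 10.6 and 10.0 CPM in the knockouts, against 21.8, 23.1 and 21.9 CPM in the controls. The 3 knockout libraries lay close together and well below the controls, a difference of 2.14-fold (log2 -1.10, SE 0.07, edgeR adjusted p = 2.1e-04). With NRP1 at 1 read in 6 libraries, NRP2 made up at least 99.6% of the neuropilin level per length in every library. SEMA3G, a secreted semaphorin that signals through NRP2, had 0.518, 0.451 and 0.348 CPM in the knockouts, against 2.15, 2.35 and 2.42 CPM in the controls. These are 40 and 216 reads, and the groups were far apart. The difference was 5.22-fold (log2 -2.38, SE 0.19, edgeR adjusted p = 4.3e-04). SEMA3F, another secreted ligand of NRP2, had 8.64, 8.70 and 4.34 CPM in the knockouts, against 10.7, 9.88 and 10.5 CPM in the controls. The groups did not overlap, but knockout replicate 3 stood far below the other knockout libraries, and the difference missed the threshold (log2 -0.52, SE 0.25, edgeR adjusted p = 0.22). Leaving that library out brought SEMA3F past the threshold (log2 -0.26, edgeR adjusted p = 0.032), as did an offset for GC content (log2 -0.50, edgeR adjusted p = 0.0024). These fits called 44.4% and 39.9% of all their tested genes.

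SEMA3E was the trace ligand with the widest gap, and was singled out after its values were seen. It had 9, 14 and 10 reads in knockout replicates 1, 2 and 3, against 1, 0 and 0 reads in control replicates 1, 2 and 3. The knockout libraries were all above the controls, and the summed counts were 33 in the knockouts and 1 in the controls. Scaled by the summed TMM-adjusted library sizes, the ratio was 34 with an exact 95% counting interval of 5.69 to 1381. That interval covers counting error only, not the spread between libraries or the choice of the gene. With no filter on low counts it was the only member called upward (log2 4.64, SE 0.79, edgeR adjusted p = 0.0027), beside the same 7 lower members. That fit called 10.3% of 18486 genes, 6.57% lower and 3.74% higher. SEMA3E is known as a direct ligand of plexin-D1 that needs no neuropilin. Its relatives on chromosome 7, SEMA3A, SEMA3C and SEMA3D, had at most 3 reads in any library, and no gene within 1 Mb of SEMA3E was tested. The trace ligand EFNA5 also had separated groups, with 10, 9 and 11 reads in the knockouts, against 4, 2 and 6 reads in the controls. It was not called with no filter.

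Plexins, the signalling receptors for semaphorins, split into 2 that fell and 4 that were not called. PLXND1, a plexin of developing vessels and thymocytes, had 54.0, 61.4 and 38.1 CPM in the knockouts, against 84.3, 80.8 and 82.0 CPM in the controls. Knockout replicate 3 was the lowest, but the other knockout libraries were also below every control, and the difference was 1.61-fold (log2 -0.69, SE 0.16, edgeR adjusted p = 0.032). That call ended without knockout replicate 1 (edgeR adjusted p = 0.072) and without control replicates 1, 2 and 3 in turn (0.12, 0.10 and 0.11). PLXNC1, the receptor for SEMA7A, had 32.7, 31.8 and 38.0 CPM in the knockouts, against 42.1, 43.2 and 43.9 CPM in the controls. Here knockout replicate 3 was the highest of its group and closest to the controls, and the difference was 1.26-fold (log2 -0.33, SE 0.08, edgeR adjusted p = 0.033). It missed the threshold without knockout replicates 1 and 2 in turn (edgeR adjusted p = 0.17 and 0.085) and without control replicates 1, 2 and 3 in turn (0.11, 0.13 and 0.14). It also missed it with the replicate number as a block (edgeR adjusted p = 0.053). SEMA7A itself had 2 to 7 reads per library, with no separation of the groups.

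The 4 other plexins shared a pattern across the knockout libraries. PLXNB1, a high-affinity receptor for SEMA4D, had 51.0, 53.7 and 29.9 CPM in knockout replicates 1, 2 and 3, against 43.8, 43.6 and 42.8 CPM in the controls. Replicates 1 and 2 were above every control and replicate 3 was below every control, so the mean difference was small (log2 0.05, SE 0.20, edgeR adjusted p = 0.91). PLXNA1, which pairs with neuropilins, had 45.6, 50.3 and 25.4 CPM in the knockouts, against 40.8, 38.8 and 37.4 CPM in the controls. PLXNA3, of the same class, had 25.1, 24.9 and 13.1 CPM in the knockouts, against 21.7, 22.5 and 23.2 CPM in the controls. PLXNB2, which binds class 4 semaphorins, had 44.3, 48.8 and 22.1 CPM in the knockouts, against 46.7, 42.4 and 42.1 CPM in the controls. In all 4 genes knockout replicate 3 was the lowest of the 6 libraries, and log2 fold changes for PLXNA1, PLXNA3 and PLXNB2 were 0.05, -0.10 and -0.19 with edgeR adjusted p of 0.92, 0.83 and 0.70. Without knockout replicate 3, PLXNB1 (log2 0.27), PLXNA1 (log2 0.30) and PLXNA3 (log2 0.15) passed upward, and PLXNB2 did not (log2 0.09); that comparison called 44.4% of all genes.

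SEMA4D was the member with the most reads and the class 4 semaphorin that fell. It had 92.1, 92.7 and 86.0 CPM in the knockouts, against 130, 131 and 135 CPM in the controls. The groups lay far apart relative to their spread, a 1.47-fold difference (log2 -0.55, SE 0.05, edgeR adjusted p = 8.7e-04). CD72, which binds SEMA4D on B cells, averaged 72.7 CPM in knockout and 63.3 CPM in control libraries and was not called (log2 0.20, edgeR adjusted p = 0.30). SEMA4A, a semaphorin that co-stimulates T cells, had 67.5, 65.6 and 52.8 CPM in the knockouts, against 62.2, 62.0 and 63.2 CPM in the controls. SEMA4B had 31.9, 35.9 and 21.5 CPM in the knockouts, against 36.9, 35.2 and 34.1 CPM in the controls. The groups of both genes overlapped, with log2 fold changes of -0.01 (SE 0.10) for SEMA4A and -0.25 (SE 0.18) for SEMA4B. SEMA4C averaged 3.95 ± 0.916 CPM in knockout and 5.21 ± 0.458 CPM in control libraries and SEMA6C 1.75 ± 0.667 and 1.67 ± 0.0980 CPM, and neither was called (log2 -0.40 and 0.06), although the groups of SEMA4C did not overlap. SEMA4F, at 7.39 ± 1.08 CPM in knockout and 5.73 ± 0.267 CPM in control libraries, was the tested member whose groups separated upward, but it missed the threshold (log2 0.37, SE 0.13, edgeR adjusted p = 0.11). Leaving out knockout replicate 3 made it a call (log2 0.47, edgeR adjusted p = 0.0041), and so did the GC offset (log2 0.41, edgeR adjusted p = 0.0053), in fits that called 44.4% and 39.9% of genes.

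Ephrins and EPH receptors gave no call. EFNA4 had the lower level in the knockouts, at 9.99 ± 1.18 CPM against 12.3 ± 0.396 CPM in the controls, without overlap of the groups (log2 -0.30, SE 0.11, edgeR adjusted p = 0.11). EFNA3 averaged 3.94 ± 0.726 CPM in knockout and 3.95 ± 0.769 CPM in control libraries. EPHB4, a receptor for ephrin-B2, averaged 17.1 ± 3.17 CPM in knockout and 15.3 ± 0.191 CPM in control libraries (log2 0.16, SE 0.14, edgeR adjusted p = 0.51). Without knockout replicate 3 it was called higher (log2 0.31, edgeR adjusted p = 0.0029), as with the GC offset (log2 0.21, edgeR adjusted p = 0.041). EPHA2, an ephrin-A receptor, averaged 1.33 ± 0.375 CPM in knockout and 0.967 ± 0.194 CPM in control libraries (log2 0.45, SE 0.27, edgeR adjusted p = 0.33) and was called higher once knockout replicate 3 was left out (log2 0.66, edgeR adjusted p = 0.034). Of the netrins, NTN1 averaged 0.582 ± 0.231 CPM in knockout and 1.13 ± 0.177 CPM in control libraries. Its groups did not overlap, yet the difference missed the threshold (log2 -0.96, SE 0.31, edgeR adjusted p = 0.079) and passed with the GC offset (log2 -0.92, edgeR adjusted p = 0.012). The fit without knockout replicate 3 called 44.4% of all its tested genes, and the GC offset 39.9%. NTN3 spread most widely among the knockouts, with 2.62, 3.99 and 0.949 CPM, against 3.28, 2.76 and 3.04 CPM in the controls. The groups of NTN3 overlapped (log2 -0.28, edgeR adjusted p = 0.73). The antisense row SEMA6A-AS1 had 91 reads in all in the knockouts and 82 in the controls and was not called (log2 0.19, edgeR adjusted p = 0.72). It overlaps SEMA6A on the other strand, and SEMA6A had at most 1 read per library.

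**Figure D3:**
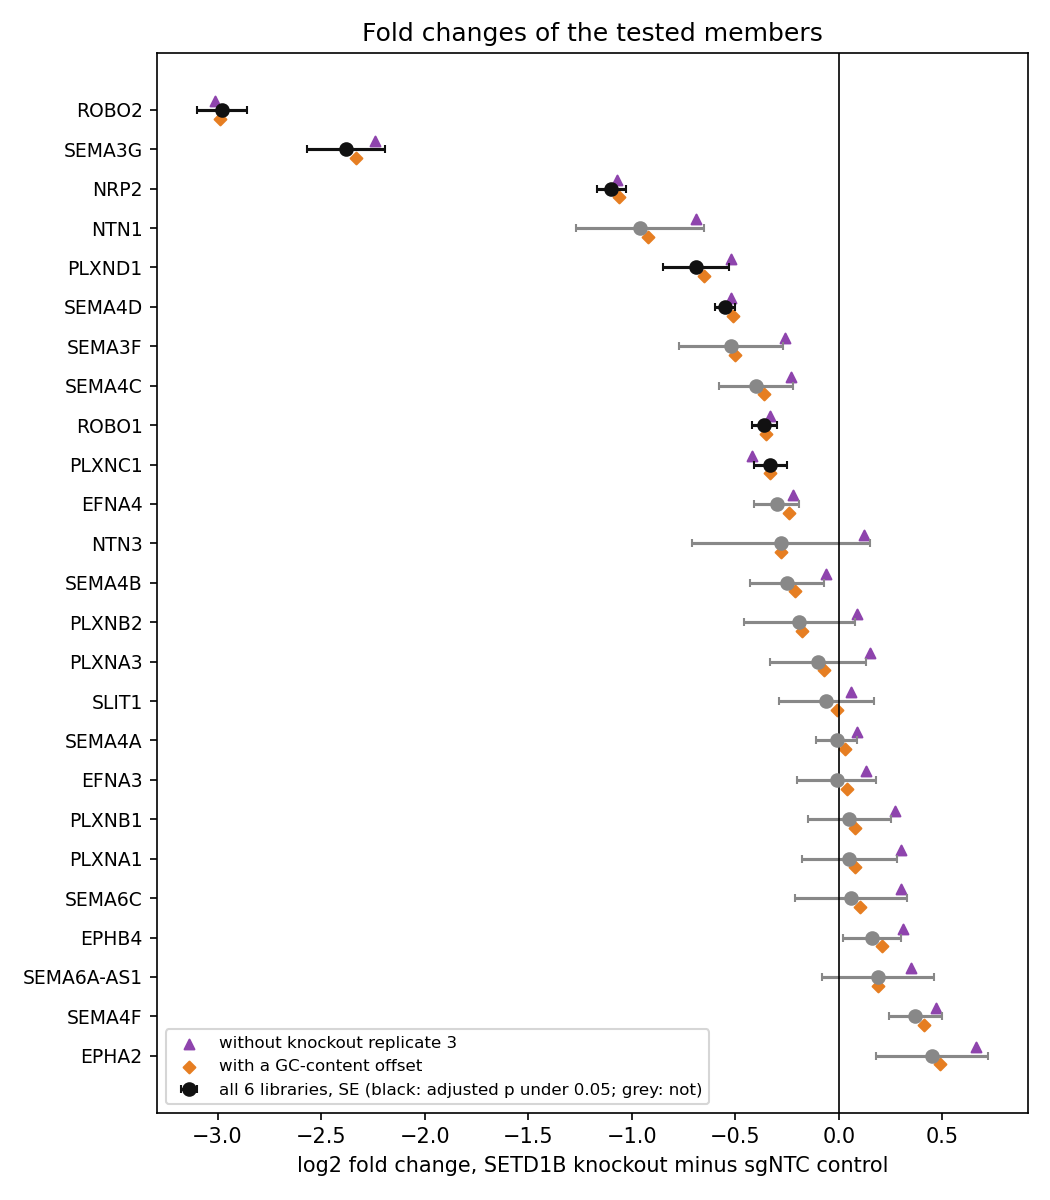
Log2 fold changes (x axis, knockout minus control) of the 25 tested members with their SE as bars, black where the edgeR adjusted p was under 0.05; triangles leave out knockout replicate 3 and diamonds use a GC-content offset. The 7 called members stay below 0 in all 3 versions, while NTN3, PLXNB2, PLXNA3, SLIT1, SEMA4A and EFNA3 cross 0 without replicate 3.

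The deviation of knockout replicate 3 followed GC content among the members. In the 19 tested members with at least 55% GC in their annotated transcripts, replicate 3 was below the mean of knockout replicates 1 and 2 in 19 of 19, with a median log2 difference of -0.66 and a range of -1.77 to -0.24. In the 6 members under 55% GC the median was -0.08 and the range -0.56 to 0.24. Across the 25 members Pearson's r was -0.78 and Spearman's coefficient -0.81, given as a description because the genes share the same libraries; r was -0.76 over 12445 tested genes. ROBO2, PLXNC1, ROBO1, NRP2 and SEMA4D lie under 55% GC, with replicate 3 differences of 0.09, 0.24, -0.07, -0.08 and -0.10. SEMA3G and PLXND1 lie above it, with -0.47 and -0.60. With the GC offset all 7 members stayed lower and the adjusted p of PLXND1 was 3.5e-07. There SEMA3F, SEMA4B, SEMA4C and NTN1 were also lower and EPHB4 and SEMA4F higher, in a fit that called 39.9% of 12468 genes, 20.7% lower and 19.2% higher.

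**Figure D4:**
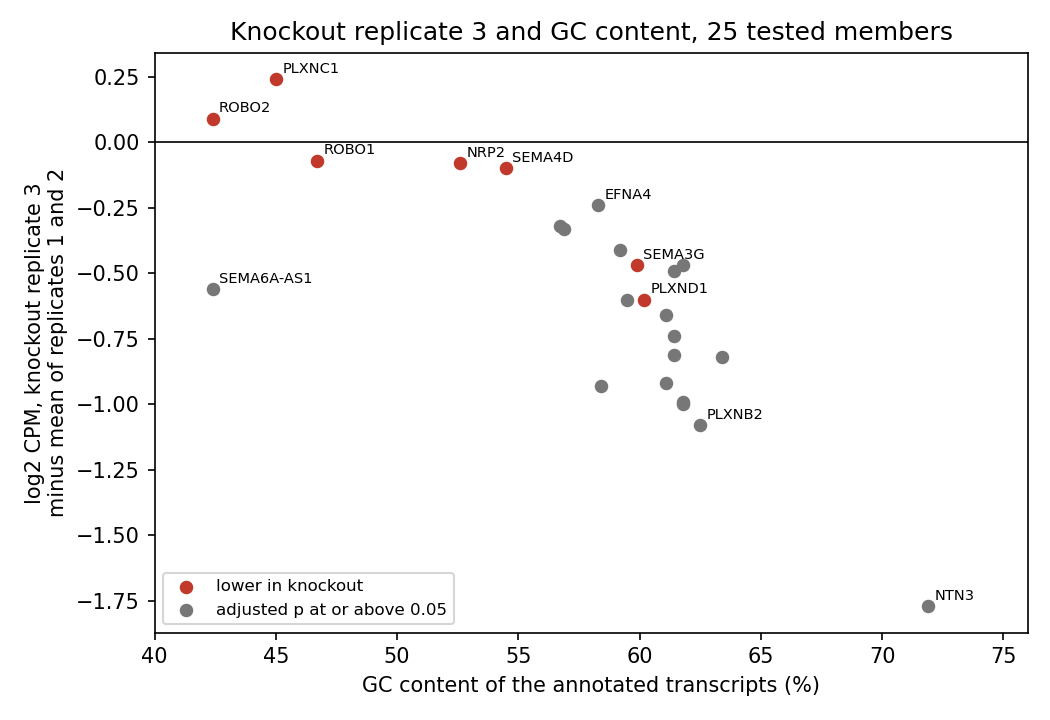
GC content of the annotated transcripts (x axis, %) and the log2 CPM of knockout replicate 3 minus the mean of knockout replicates 1 and 2 (y axis) for the 25 tested members. Points fall to the right, down to -1.77 for NTN3; red points are the 7 members lower in the knockouts, 5 of which lie under 55% GC.

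By position, 4 of the 7 lower members (ROBO1, ROBO2, SEMA3G and PLXND1) lie on chromosome 3, which holds 7 tested members. The others there, PLXNB1, SEMA3F and PLXNA1, were not called. On chromosome 3 as a whole 11.9% of 731 tested genes were lower, with a median log2 fold change of -0.02. Within 1 Mb of SEMA3G (52433053 to 52445085), 45 genes were tested, of which 3 were lower and 1 higher. The lower ones included STAB1 (log2 -1.67, edgeR adjusted p = 0.0012), which encodes the scavenger receptor stabilin-1 and was picked out with its value known. Around PLXND1 (129555175 to 129606818) 3 of 22 were lower and 1 was higher. Around NRP2 on chromosome 2 (205681990 to 205798133) 2 of 9 were higher and none lower, and one of the 2 was the imprinted gene ZDBF2 (log2 2.35, edgeR adjusted p = 0.0048), also picked out with its value known. Around SEMA4D on chromosome 9 (89360787 to 89498130) none of 4 was called. Around PLXNC1 on chromosome 12 (94148723 to 94307675) 2 of 13 were lower, SOCS2 and CEP83, and none was higher. CEP83 shares 177 exon bases with PLXNC1 on the opposite strand.

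The start regions of the changed members are shown because SETD1B complexes are known to be drawn to CpG-rich starts, and the members differ widely there. Each line gives the 250 bases before a RefSeq start (GRCh38.p14), 5′ to 3′ on the gene's strand, with CpG dinucleotides in capitals. EFNB1, which had no read in any library, is set beside 4 of the lower members. Which start OCI-LY8 uses was not measured.
ROBO2 upstream start, chr3:76310630-76310879, forward strand: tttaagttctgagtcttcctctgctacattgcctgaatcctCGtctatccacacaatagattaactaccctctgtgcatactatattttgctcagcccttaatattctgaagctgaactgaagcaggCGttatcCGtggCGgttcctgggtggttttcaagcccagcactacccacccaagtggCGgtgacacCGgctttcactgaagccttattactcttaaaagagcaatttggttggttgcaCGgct
ROBO2 downstream start, chr3:77039849-77040098, forward strand: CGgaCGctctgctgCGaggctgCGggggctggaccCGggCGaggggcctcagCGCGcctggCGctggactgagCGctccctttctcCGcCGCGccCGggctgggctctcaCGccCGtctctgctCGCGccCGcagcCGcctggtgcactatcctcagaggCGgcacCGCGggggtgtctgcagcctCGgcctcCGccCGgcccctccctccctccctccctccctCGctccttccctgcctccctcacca
SEMA3G, chr3:52445104-52445353, reverse strand: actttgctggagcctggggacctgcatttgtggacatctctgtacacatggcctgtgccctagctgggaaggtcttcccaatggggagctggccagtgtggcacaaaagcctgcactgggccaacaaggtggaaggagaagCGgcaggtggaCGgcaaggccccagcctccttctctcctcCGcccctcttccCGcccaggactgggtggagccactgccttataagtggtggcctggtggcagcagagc
NRP2, chr2:205682251-205682500, forward strand: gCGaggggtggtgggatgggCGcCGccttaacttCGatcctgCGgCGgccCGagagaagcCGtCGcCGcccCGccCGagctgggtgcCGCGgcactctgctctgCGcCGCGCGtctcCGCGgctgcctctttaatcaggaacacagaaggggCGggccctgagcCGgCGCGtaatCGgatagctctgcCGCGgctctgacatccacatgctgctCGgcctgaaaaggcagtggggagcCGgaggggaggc
SEMA4D, chr9:89495657-89495906, reverse strand: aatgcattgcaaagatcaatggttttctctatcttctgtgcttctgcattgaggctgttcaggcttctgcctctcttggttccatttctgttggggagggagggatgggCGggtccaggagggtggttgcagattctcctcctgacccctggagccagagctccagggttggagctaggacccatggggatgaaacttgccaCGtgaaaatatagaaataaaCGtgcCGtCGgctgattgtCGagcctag
EFNB1, chrX:68828771-68829020, forward strand: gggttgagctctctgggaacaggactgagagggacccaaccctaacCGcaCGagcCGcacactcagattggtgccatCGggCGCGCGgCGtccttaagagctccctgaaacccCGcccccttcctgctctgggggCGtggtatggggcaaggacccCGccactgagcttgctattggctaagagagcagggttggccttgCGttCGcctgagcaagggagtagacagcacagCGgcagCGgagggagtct

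The CpG counts in these 250 bases were 7 and 27 for the upstream and downstream starts of ROBO2, 4 for SEMA3G, 29 for NRP2, 6 for SEMA4D and 15 for EFNB1. The lower members thus ranged from CpG-poor (SEMA3G, observed over expected CpG 0.17) to CpG-rich (NRP2, 0.95), and silent EFNB1 (0.60) lay between them. Observed over expected CpG was also taken over 250 bases before to 50 after the start, keeping the highest value of a gene with several starts. Its median was 0.81 in 22 of the 24 tested protein-coding members. It was 0.80 in 24 of the 32 trace members and 0.82 in 13 of the 14 silent ones. The remaining members, such as NTN1, NTN3 and NRP1, had no entry among the start regions used and are left out. At least 0.6 was reached by 77.3% of the tested, 83.3% of the trace and 84.6% of the silent members, so CpG content did not order the 3 states. Among all genes of the count table with an entry, 86.4% of the tested genes and 35.1% of the silent genes reached 0.6, as did 51.9% of all 27305 genes with a RefSeq start region. Of the 7 lower members, 5 reached it, and SEMA3G and SEMA4D did not.

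**Figure D5:**
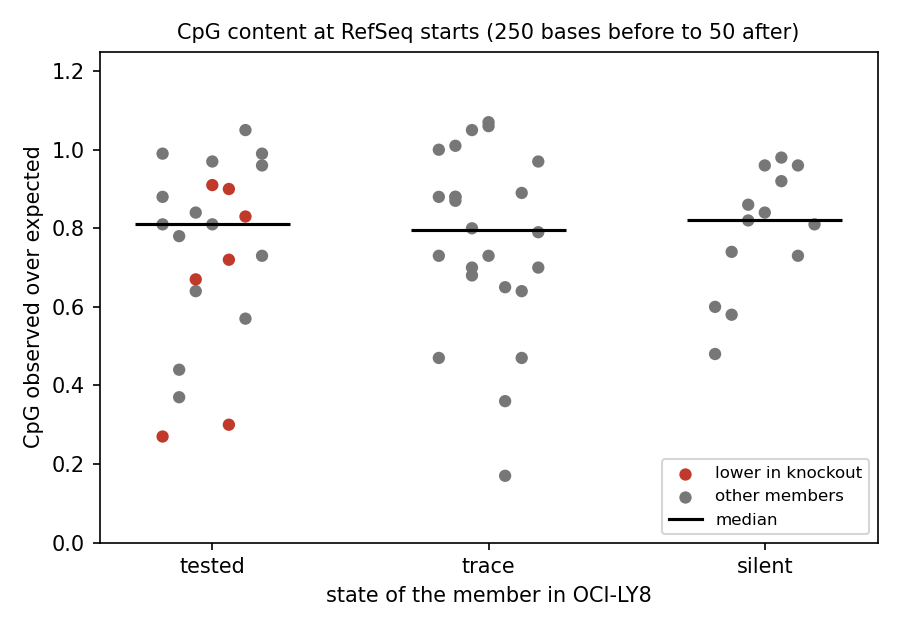
Observed over expected CpG (y axis) around RefSeq starts of the protein-coding members with an entry among the start regions used, by state in OCI-LY8, 1 point per gene, with medians as lines. The medians of tested, trace and silent members are 0.81, 0.80 and 0.82, and the 7 lower members (red) spread from 0.27 to 0.91.

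Partner receptors and signalling genes of these pathways were grouped in 4 lists, whose calls are to be read against the 15.0% of all tested genes that were called (9.33% lower and 5.71% higher). Of 25 co-receptors and partner receptors, 11 were tested, and 1 was lower, none higher and 10 not called (median log2 -0.01). The lower one was RGMB, a BMP co-receptor and neogenin ligand, at 15.4 ± 0.716 CPM in knockout and 22.5 ± 1.54 CPM in control libraries (log2 -0.55, SE 0.08, edgeR adjusted p = 0.0054). MET, a plexin-B partner kinase, averaged 34.2 CPM in knockout and 43.5 CPM in control libraries and missed the threshold (edgeR adjusted p = 0.086).

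Of 34 semaphorin and plexin signalling genes, 24 were tested, 2 were higher, 3 lower and 19 not called (median log2 -0.03). ARHGEF12, an exchange factor for small GTPases bound by plexin-B receptors, was higher at 200 ± 14.2 CPM in knockout against 113 ± 1.51 CPM in control libraries (log2 0.82, SE 0.06, edgeR adjusted p = 3.5e-04), whereas its relative ARHGEF11 was lower (60.2 ± 6.95 against 75.5 ± 1.75 CPM, edgeR adjusted p = 0.049). FARP2, an exchange factor for plexin-A receptors, was 1.30-fold higher. The kinase CDK5, which acts in semaphorin signalling, was 1.34-fold lower. FYN, a Src family kinase that couples to plexin-A, was lower at 0.464 ± 0.139 CPM in knockout against 2.71 ± 0.323 CPM in control libraries. The difference was 5.83-fold (edgeR adjusted p = 5.8e-04).

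In the ephrin and EPH list 22 of 26 genes were tested, 2 were lower, none higher and 20 not called (median log2 -0.03). The 2 were the exchange factors ITSN1 (8.25 ± 0.390 CPM in knockout against 18.8 ± 0.534 CPM in control libraries, edgeR adjusted p = 2.1e-04) and TIAM1 (22.1 ± 0.330 against 31.8 ± 1.82 CPM, edgeR adjusted p = 0.0029). Both lie on chromosome 21, where 57.7% of 123 tested genes were lower, with a median log2 fold change of -0.42. In the slit and netrin list 17 of 23 genes were tested, 1 was higher, 2 lower and 14 not called (median log2 -0.06). SRGAP3, a GTPase-activating protein of the ROBO pathway, was lower at 1.16 ± 0.0945 CPM in knockout against 2.38 ± 0.206 CPM in control libraries (log2 -1.04, SE 0.15, edgeR adjusted p = 0.0048). TRIM9, a ubiquitin ligase that binds the netrin receptor DCC, was 1.55-fold lower.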

How the data were processed

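Per the submitters' processing notes, the authors used CASAVA 1.8, Trimmomatic, HISAT2, featureCounts and DESeq2 with hg38 (annotation and strand setting not given in the sources used here), so overlapping genes are uncertain. The authors deposited whole-number read counts per gene and a table of log2 values (count times 1 factor per library, 0.949 to 1.14). The 25 tested members are the 25 members in that log2 table, which was used only for this check. No per-sample column was unused (0).

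Counts were fitted across all genes with edgeR 4.0.16 in R 4.3.3 (filterByExpr, TMM, robust quasi-likelihood, group term, Benjamini-Hochberg at 0.05). The fit was also run on simulated counts, in which no library deviates with GC content, so that run does not check this feature of the data. SE is the absolute log2 fold change over the square root of F. Members and lists were chosen with earlier results of these data known. Every tested member is named, with all 6 values for called members and the 6 most read uncalled ones; of each list, called genes averaging 1 CPM or more, up to 3 each way, except 1 gene that is not reported here. Alternatives were RLE or library-size scaling, 2 other filters, DESeq2 1.42.0, limma-voom 3.58.1, a replicate block, a GC offset (lowess per library) and leaving out each library. Positions, exon lengths and GC come from GENCODE 29, and start regions from RefSeq. Replicates of a group differed by more than sampling noise (chi-square per degree of freedom at least 1.80). It was at most 3.64 between controls and 5.18 between knockout replicates 1 and 2. Knockout replicate 3 gave 42.7 and 54.1 against knockout replicates 1 and 2.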

Additional observations from a re-analysis of the deposited data

How the results depend on the processing

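The 7 lower members kept their direction in every alternative that tested them, and ROBO2, SEMA3G, NRP2 and SEMA4D kept their call in each one, except that SEMA3G was not tested under the 5 CPM filter and SEMA4D is below a 2-fold minimum. Leaving out 1 library gave 779 to 5795 changed genes and 4 to 14 changed members, the highest without knockout replicate 3. It gave 1 to 5 co-receptors, 2 to 13 semaphorin and plexin, 2 to 10 ephrin and EPH, and 2 to 10 slit and netrin signalling genes. The GC offset gave 4970 genes, 13 members and 5, 14, 8 and 9 genes of these lists; the causes were not tested. The stricter filter gave 2 co-receptors and 3 semaphorin and plexin genes. An adjusted p under 0.01 left 828 genes, and a 2-fold minimum 403 genes and 3 members. The same replicate numbers gave correlations of -0.00884, -0.101 and 0.0811 between groups, and unlike numbers gave -0.129 to 0.189. These values showed no pairing by number but, with 3 libraries per group and knockout replicate 3 apart, cannot exclude it. The replicate block gave 1326 genes (1941 without it), 6 members and 3 semaphorin and plexin genes. A mean of 1 CPM counts 23 members and a read in all 6 libraries 33.

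Signs turned only in members not called with all libraries. SEMA4A was 0.00 with RLE and DESeq2 and 0.03 with the GC offset; EFNA3 was 0.00, 0.01 and 0.04. With limma-voom PLXNB1 was -0.00, PLXNA1 -0.01 and SEMA6C -0.01, and with the replicate block PLXNA1 was -0.00. Leaving out 1 library gave -0.06 to 0.09 for SEMA4A, -0.40 to 0.09 for PLXNB2, -0.10 to 0.27 for PLXNB1, -0.14 to 0.30 for PLXNA1, -0.12 to 0.16 for EFNA3, -0.24 to 0.15 for PLXNA3, -0.76 to 0.12 for NTN3, -0.01 to 0.39 for SEMA6A-AS1, -0.26 to 0.30 for SEMA6C and -0.22 to 0.09 for SLIT1. Depth limits trace rows, where a library's single reads decide the level.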
